A study of Mus musculus with 6 samples.

Results

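The genes described here are 37 named genes of the actomyosin machinery, of its transcription factor SRF, and of the YAP and TEAD pathway, in cancer-associated fibroblasts (CAFs) of mouse mammary tumors. They were taken by name, with earlier results of these data known, and all 37 matched a symbol among the 27179 genes of the count table. All 37 also passed the filter on low counts, as did 14855 genes in all. By role, 12 are actin filament genes, 5 are myosin heavy chains, light chains or kinases, 8 are adhesion, crosslinking and cytoskeletal linker genes, 1 is Srf itself, 7 are YAP, TEAD and Hippo genes, and 4 are YAP targets.

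The CAFs came from 3 tumors of female raGFP-Wnt1 mice. These mice carry the MMTV-Wnt1 transgene (FVB/NJ), in which a mammary tumor virus promoter drives Wnt1 in the mammary epithelium, and 1 allele of Pdgfra H2B-GFP (C57BL/6), which labels the nuclei of Pdgfra-expressing cells, and both fractions share these alleles. GFP+ cells of each tumor were sorted into a CD34 negative and a CD34 positive fraction, so 1 library per fraction and tumor was sequenced, 6 in all, named here positive or negative library 1, 2 or 3 after the tumor. The age of the mice is not given in the sources used here. The study set these fractions side by side to learn how CAFs that lack CD34 differ from CAFs that keep it, and the 37 genes address the contractile side of that difference. Since only GFP+ cells were kept, fibroblasts and mural cells without Pdgfra lay outside the gate by design.

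Smooth muscle α-actin (Acta2), calponins, tropomyosins and myosin II form the contractile bundles by which activated fibroblasts pull on their surroundings. Many of these genes are known targets of SRF, which binds a short A/T-rich element called the CArG box and is switched on by its MRTF cofactors when actin monomers are used up. YAP and TAZ (Wwtr1) are coactivators that the Hippo kinases, among them Lats2, hold in the cytoplasm, and on stiff or tensed substrates they enter the nucleus and act through the TEAD factors on genes such as Ccn1, Ccn2, Ankrd1 and Amotl2.

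The sequences that these factors are known to read are shown first, since the values below are grouped by the factors. RefSeq (GRCm38.p6) promoter windows were at hand for 31 of the 37 genes, in 38 windows, and the 250 bases before each start were searched on both strands. None was at hand for Actg2, Tagln, Myh11, Tead1, Tead4 and Ccn2. The CArG box (CC, 6 bases of A or T, GG) was present in 5 of the 31 genes (16.1%) against 439 of 27025 genes with a window (1.62%). The search allowed no substitution, so near matches were neither counted nor marked. The Acta2 window below holds such letters, ccctatatgg and ccttgtttgg, so its lack of an exact match does not mean that it lacks a CArG-like element. The TEAD core GGAATG, or its reverse complement CATTCC, was present in 15 of 31 (48.4%) against 14.4% of all genes. Capitals mark these letters in 6 windows, which were chosen as Srf with its 2 boxes, Cnn2 and Fhl2 with a box among the genes that passed with the tumor as a block, and Acta2, Mylk and Ccn1 with a TEAD core.
Srf, chr17:46556163-46556412, minus strand: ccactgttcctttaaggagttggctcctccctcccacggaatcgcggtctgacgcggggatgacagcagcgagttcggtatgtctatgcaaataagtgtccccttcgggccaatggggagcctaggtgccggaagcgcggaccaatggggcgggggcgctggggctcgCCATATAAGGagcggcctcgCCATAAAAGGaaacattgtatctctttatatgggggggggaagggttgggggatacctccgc
Cnn2, chr10:79988350-79988599, plus strand: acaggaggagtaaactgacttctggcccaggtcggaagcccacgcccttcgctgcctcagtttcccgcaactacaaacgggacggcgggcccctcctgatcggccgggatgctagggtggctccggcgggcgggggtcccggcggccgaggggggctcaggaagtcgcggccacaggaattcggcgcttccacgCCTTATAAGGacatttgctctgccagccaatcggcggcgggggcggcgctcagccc
Fhl2, chr1:43163962-43164211, minus strand: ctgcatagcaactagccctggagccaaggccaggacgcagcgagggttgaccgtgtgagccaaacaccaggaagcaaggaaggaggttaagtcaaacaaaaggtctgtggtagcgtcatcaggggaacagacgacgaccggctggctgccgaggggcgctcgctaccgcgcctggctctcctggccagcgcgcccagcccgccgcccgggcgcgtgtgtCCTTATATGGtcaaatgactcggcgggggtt
Acta2, chr19:34255374-34255623, minus strand: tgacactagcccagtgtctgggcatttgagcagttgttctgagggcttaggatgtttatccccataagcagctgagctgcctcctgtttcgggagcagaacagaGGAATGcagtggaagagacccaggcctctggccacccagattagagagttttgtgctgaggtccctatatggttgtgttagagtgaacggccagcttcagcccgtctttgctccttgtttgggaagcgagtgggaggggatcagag
Mylk, chr16:34784700-34784949, plus strand: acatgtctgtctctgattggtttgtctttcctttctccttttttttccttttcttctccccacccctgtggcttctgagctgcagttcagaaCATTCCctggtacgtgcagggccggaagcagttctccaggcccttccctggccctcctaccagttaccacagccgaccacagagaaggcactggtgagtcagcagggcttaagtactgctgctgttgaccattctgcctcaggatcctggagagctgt
Ccn1, chr3:145649986-145650235, minus strand: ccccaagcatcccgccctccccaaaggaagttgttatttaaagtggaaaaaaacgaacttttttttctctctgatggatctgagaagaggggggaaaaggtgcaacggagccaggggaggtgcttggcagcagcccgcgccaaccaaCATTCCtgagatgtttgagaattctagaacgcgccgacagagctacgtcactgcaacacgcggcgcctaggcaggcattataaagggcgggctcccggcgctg
The boxes of Srf began 82 and 62 bases before its start, that of Cnn2 56 bases and that of Fhl2 31 bases before the start shown. Fhl2 had a further box in the window of its other start, and Myl9 and Vcl were the remaining genes with a box. The windows shown for Mylk, Srf and Fhl2 lie within the spans of these genes, before internal starts. No window at the outermost start of these genes was at hand, while their counts cover the whole gene. A match is a description of letters and not a measured binding site, and windows without a match say only that these letters are not in them. Vcl alone held both motifs, and 12 of the 31 genes held neither. Of the 5 genes with an exact CArG box, 2 passed the test with the tumor as a block that is described below. So did 4 of the 26 without one, Acta2 among them. For the TEAD core these counts were 2 of 15 with it and 4 of 16 without it. Over all genes tested, 8.57% passed that test, and the share among all genes with a motif was not computed. A link between motif and call was not tested. Actg2, Tagln and Ccn2 also passed but had no window, so they are in none of these counts.

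Depth ranged from 16238059 counts in positive library 1 to 86609267 counts in positive library 2. Cd34, the sorted marker, was at 677, 562 and 1604 CPM (the count relative to library size and TMM factor) in positive libraries 1, 2 and 3, and at 79.1, 41.9 and 102 CPM in negative libraries 1, 2 and 3, as the labels state. Negative library 3 stood apart from the rest, with the fewest genes detected (14314) and correlations of 0.837 to 0.883 with the other 5 libraries. Fibroblast markers (Dcn, Lum, Pdgfra, Col1a2, Igfbp5) summed to between 23882 and 39349 CPM in every library, a sum carried by Col1a2. The other 4 markers were lower in the negative library of all 3 tumors, and Dcn and Lum passed with the tumor as a block (blocked log2 fold changes -1.12 and -0.73, adjusted p = 0.00154 and 0.0140, limma-voom).

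Most of the 37 genes stood higher in CD34 negative CAFs, but the spread between tumors was large. The fitted log2 fold change (negative minus positive) was above 0 for 33 genes and below 0 for Tagln2, Myh10, Zyx and Ccn1. Over all genes tested, 47.7% were above 0. The median of the 37 genes was 0.50, against -0.03 over all genes tested. In limma-voom, the method the study names, without a term for the tumor, 0 of 37 genes passed an adjusted p of 0.05 (Benjamini-Hochberg over all genes), where 0.121% of all genes did, 0.0202% higher and 0.101% lower. The study reports more genes higher in CD34 negative CAFs than passed here, so this fit does not reproduce its calls. At an unadjusted p under 0.05, 10 genes were higher and 0 lower, where 14.3% of all genes passed and 7.23% were higher. Without the block, edgeR passed 0 of 37 (0.0606% of all genes) and DESeq2 passed 2, Des and Ccn2 (4.70%).

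With the tumor as a block, 9 of 37 genes passed in limma-voom, all of them higher in CD34 negative CAFs, where 8.57% of all genes passed, 4.32% higher and 4.25% lower. They were Acta2, Actg2, Tagln and Cnn2 among the actin filament genes, Mylk and Myh9 among the myosin genes, the intermediate filament gene Des, the LIM-domain cofactor Fhl2, and the YAP target Ccn2. DESeq2 with the block passed 12 (11.7% of all genes) and edgeR with the block 2, Cnn2 and Mylk (3.87%). The block lowered the median standard error of the 37 genes from 0.289 to 0.187 on the log2 scale, and that of all genes from 0.322 to 0.249. P-values measure the spread between 3 tumors only, and in fits that leave out a tumor only that between the remaining ones. Blocked fits that leave out a tumor keep few residual degrees of freedom, so their p-values lean on the variance of all genes. In bulk samples, more cells of a type and more RNA per cell cannot be told apart.

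**Figure D1:**
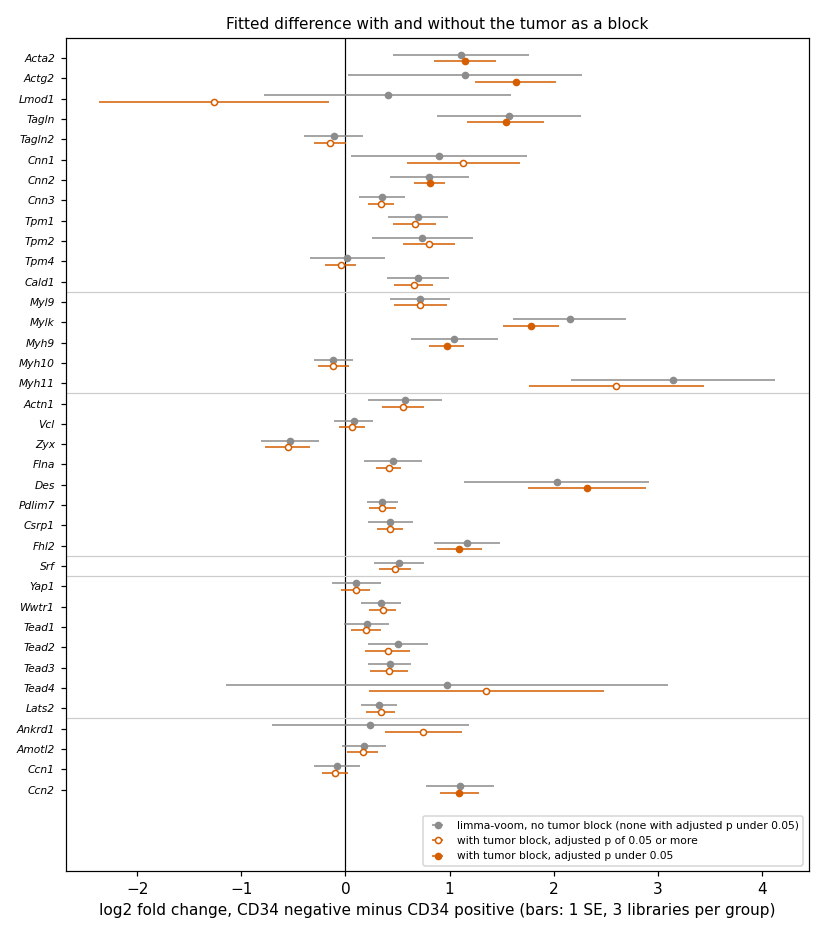
Fitted log2 fold change of each of the 37 genes, CD34 negative minus CD34 positive, with bars of 1 SE from 3 libraries per group, in the limma-voom fit without (grey) and with (orange) the tumor as a block, where horizontal lines separate the roles. The fitted values of the 2 fits lie close together for most genes, the orange bars are shorter, and the 9 filled orange points all lie to the right of 0.

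Within single tumors, 24 of the 37 genes were higher in the negative library of all 3 tumors, where 22.8% of all genes were, and 1 gene, Ccn1, was lower in all 3. The median log2 ratio of the 37 genes was 0.32 in tumor 1, 0.38 in tumor 2 and 0.95 in tumor 3. Tumor 3 gave the largest ratio for 26 of the 37 genes, and it holds negative library 3. Without tumor 3, the blocked fit passed 11 of the 37 genes, including all 9, where 2019 of 15514 genes passed (13% of all genes). Without tumor 1 (7.61% of all genes) or without tumor 2 (5.82%) it kept 7 of the 9 and lost Actg2 and Des. Both of these fits gained Tpm1, Tpm2, Cald1 and Myl9 as higher, and that without tumor 1 also Myh11 and Actn1 as higher and Zyx as lower. The groups did not overlap, negative above positive, for 6 genes (Mylk, Des, Pdlim7, Fhl2, Lats2 and Ccn2), where 10.4% of all genes did so, and 0 genes lay wholly below, where 10.0% of all genes did so (20.5% in either direction).

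**Figure D2:**
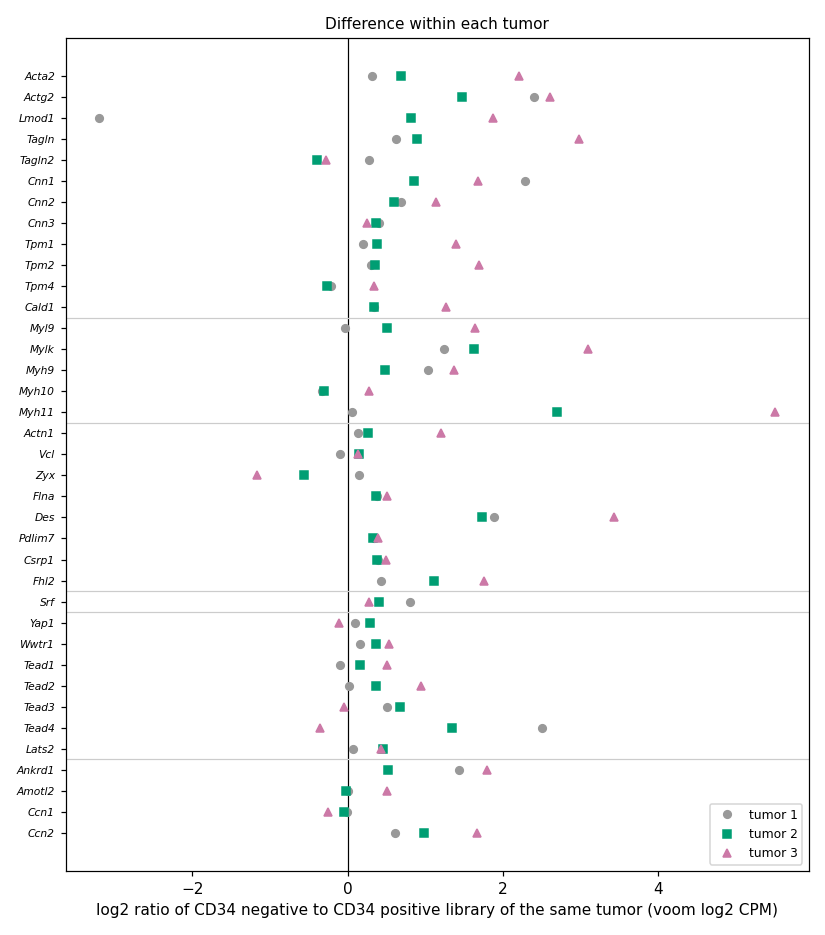
Log2 ratio of the CD34 negative to the CD34 positive library of the same tumor for each of the 37 genes, from voom log2 CPM values, 1 point per tumor. Triangles (tumor 3) lie farthest right for 26 genes, and Lmod1 in tumor 1 is the point farthest to the left.

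Among the actin filament genes, 11 of 12 had a log2 fold change above 0, where 47.7% of all genes did. With the block, 4 passed in limma-voom, all higher, where 8.57% of all genes passed and 4.32% were higher. In all 3 tumors, 9 were higher, where 22.8% of all genes were. Acta2, the smooth muscle actin of myofibroblasts (chr19:34240336-34255585), was at 75.3, 273 and 75.4 CPM in positive libraries 1, 2 and 3 and at 94.0, 440.3 and 348 CPM in the negative ones. Positive library 2 lay above negative library 1, so the groups overlapped, while within each tumor the negative library was higher, by 0.32, 0.69 and 2.21 on the log2 scale. Its log2 fold change was 1.11 (SE 0.65, adjusted p = 0.478, limma-voom) without and 1.15 (SE 0.30, adjusted p = 0.0439) with the block, and 0.51 with the block when tumor 3 was left out.

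Tagln, the actin-binding transgelin that is a common smooth muscle marker (chr9:45929628-45936058), followed the same order of libraries. It was at 114, 365 and 56.8 CPM in positive libraries 1, 2 and 3 and at 176, 678 and 449 CPM in the negative ones. Positive library 2 again exceeded negative library 1. The log2 fold change of Tagln was 1.57 (SE 0.69, adjusted p = 0.350, limma-voom) without and 1.54 (SE 0.37, adjusted p = 0.0325) with the block. Its ratios were 0.63, 0.90 and 2.98 in tumors 1, 2 and 3, and without tumor 3 the log2 fold change was 0.87 without and 0.75 with the block. DESeq2 with the block gave it an adjusted p of 0.155. Tagln overlaps Pcsk7, whose counts came to 7.29% of those of Tagln, and strand use in the counting is not stated.

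Cnn2, a calponin that is also found outside muscle (chr10:79988600-79995400), was at 68.9, 162 and 77.2 CPM in positive libraries 1, 2 and 3 and at 111, 244 and 170.5 CPM in the negative ones. Its ratios were the most even of the 4 called actin filament genes, at 0.69, 0.59 and 1.14. The log2 fold change was 0.80 (SE 0.38, adjusted p = 0.380, limma-voom) without and 0.81 (SE 0.15, adjusted p = 0.0119) with the block. Cnn2 passed in all 6 blocked fits that were run, which share libraries and include those that left out a tumor. Actg2, the enteric smooth muscle actin (chr6:83512909-83536251), was scarce, at 0.371, 4.59 and 0.917 CPM in positive libraries 1, 2 and 3 and at 2.12, 12.7 and 5.66 CPM in the negative ones. The gene was higher in the negative library of each tumor, with a log2 fold change of 1.14 (SE 1.12, adjusted p = 0.682, limma-voom) without and 1.63 (SE 0.39, adjusted p = 0.0313) with the block, and the blocked value was 2.53 (adjusted p = 0.500) without tumor 2.

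Acta2 and Actg2 encode near-identical proteins and have similar coding sequences, so some of their reads can be hard to separate. How reads with several matches were counted is not stated. Per length, Acta2 made up 96.2% to 99.3% of the sum of both genes in each library.

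The other 8 actin filament genes passed in neither fit. Cald1 (caldesmon), Tpm1 and Tpm2 (tropomyosins that line the filament) had blocked log2 fold changes of 0.66, 0.66 and 0.80, with adjusted p-values in limma-voom of 0.0633, 0.0916 and 0.0857. All 3 were higher in each tumor, and Cald1 passed in DESeq2 with the block (adjusted p = 0.0267). Cnn3 (0.35) and Cnn1 (0.90) were higher in each tumor as well. Tpm4, at 343 to 879 CPM the tropomyosin with the highest level per length, had a log2 fold change of 0.02 and was lower in tumors 1 and 2, and Tagln2 was at -0.11. Lmod1, a nucleator of muscle actin filaments, stood at 5.75 CPM in positive library 1 and at 0.106 to 0.623 CPM in the other 5 libraries, so its sign turned between the fits, from 0.40 to -1.26 with the block.

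**Figure D3:**
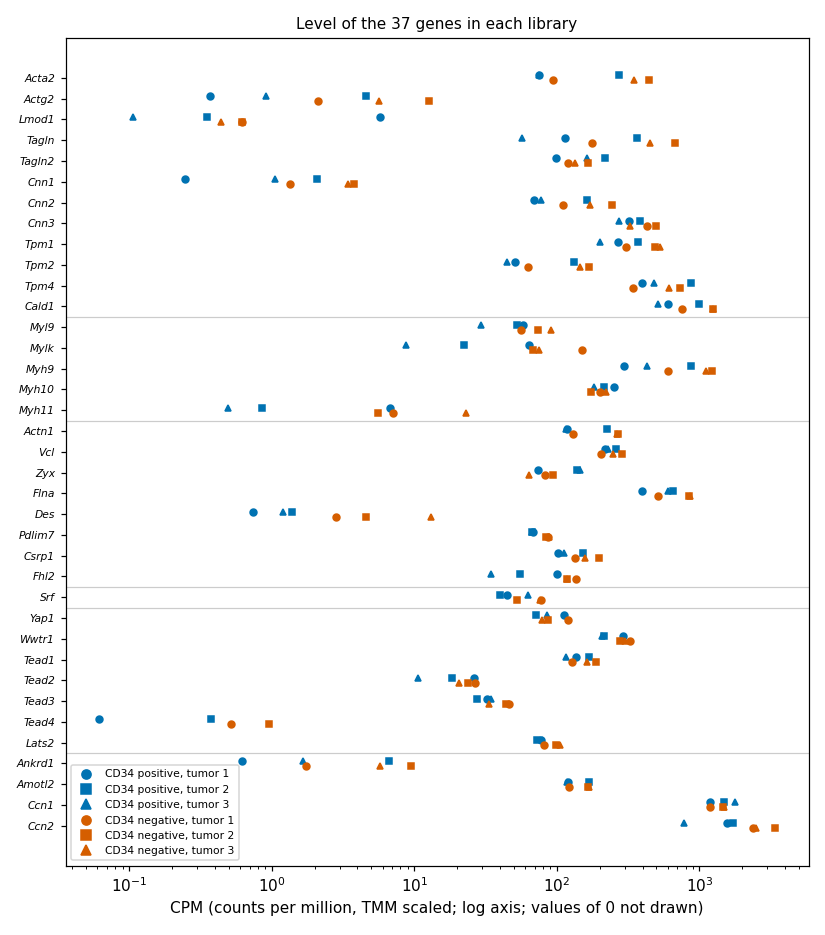
Level of each of the 37 genes in the 6 libraries, in CPM on a log axis, with blue for CD34 positive, orange for CD34 negative and the marker shape for the tumor. For most actin filament genes the blue square (positive library 2) lies to the right of the other blue points and the orange circle (negative library 1) to the left of the other orange points.

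Most actin filament genes had the same order of libraries. Positive library 2 was the highest positive library for 11 of these 12 genes, where it was so for 34.8% of all genes, and negative library 1 was the lowest negative library for 10 of them, where it was so for 29.6%. Positive library 2 exceeded negative library 1 for 10 of the 12. Summed over the 12 genes, the positive libraries were at 2002, 3776 and 1891 CPM and the negative libraries at 2407, 4675 and 3963 CPM. Each negative sum exceeded that of its own tumor, while the groups overlapped. Positive library 2 was also the highest positive library for 5 of 8 adhesion genes, 3 of 4 YAP targets and 1 of 5 myosin genes, and negative library 1 the lowest negative library for 5, 4 and 2 of them.

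Mylk, the kinase that phosphorylates the myosin light chain and so starts contraction (chr16:34745199-35002436), was the myosin gene with the lowest adjusted p in both fits. It was at 63.6, 22.2 and 8.75 CPM in positive libraries 1, 2 and 3 and at 151, 68.6 and 74.9 CPM in the negative ones. The groups did not overlap, although positive library 1 lay just below negative library 2. The log2 fold change was 2.15 (SE 0.54, adjusted p = 0.143, limma-voom) without and 1.78 (SE 0.27, adjusted p = 0.00494) with the block, higher in 3 of 3 tumors. Mylk passed in all 6 blocked fits, which share libraries and include those that left out a tumor. Without tumor 1 it was also the only one of the 37 genes that passed with no block.

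Myh9, the main listed nonmuscle myosin II heavy chain (chr15:77760585-77842175), was at 295, 879.6 and 430.03 CPM in positive libraries 1, 2 and 3 and at 604, 1233 and 1115 CPM in the negative ones. Positive library 2 lay above negative library 1, and each tumor's negative library was higher. Its log2 fold change was 1.05 (SE 0.42, adjusted p = 0.316, limma-voom) without and 0.97 (SE 0.17, adjusted p = 0.00908) with the block. Myh10, the other listed nonmuscle heavy chain, was at 184 to 249.9 CPM in the positive and 173 to 222 CPM in the negative libraries, with a log2 fold change of -0.12.

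Myh11, the smooth muscle heavy chain, had the largest fitted value of the 37 genes, 3.14 (SE 0.98, adjusted p = 0.205, limma-voom), and 2.60 (SE 0.84, adjusted p = 0.0960) with the block. It was at 6.74, 0.854 and 0.494 CPM in positive libraries 1, 2 and 3 and at 7.06, 5.56 and 23.1 CPM in the negative ones. Tumor 1 showed next to no difference (0.06) and tumor 3 a log2 ratio of 5.50. DESeq2 with the block passed it (adjusted p = 0.00767). Myl9, the regulatory light chain, had a log2 fold change of 0.71, with ratios of -0.03, 0.50 and 1.65 in tumors 1, 2 and 3, and passed in neither limma-voom fit.

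Des and Fhl2 were the called genes among the 8 adhesion, crosslinking and linker genes. Des, the muscle intermediate filament protein desmin (chr1:75360292-75368579), was at 0.742, 1.39 and 1.20 CPM in positive libraries 1, 2 and 3 and at 2.85, 4.63 and 13.1 CPM in the negative ones. Every negative library exceeded every positive one, at a low level throughout. Its log2 fold change was 2.03 (SE 0.88, adjusted p = 0.348, limma-voom) without and 2.32 (SE 0.57, adjusted p = 0.0362) with the block.

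Fhl2, a LIM-domain cofactor that binds SRF and other factors (chr1:43123071-43198343), was at 100.4, 54.8 and 34.6 CPM in positive libraries 1, 2 and 3 and at 136, 119 and 117 CPM in the negative ones. The negative libraries lay close together and above all positive ones. The log2 fold change was 1.17 (SE 0.32, adjusted p = 0.165, limma-voom) without and 1.09 (SE 0.21, adjusted p = 0.0146) with the block, higher in 3 of 3 tumors. Fhl2 overlaps the pseudogene Gm8210, whose counts came to 143% of its own, so its level is uncertain. The fitted change of Gm8210 was -0.27 (adjusted p = 0.519, limma-voom), of the opposite sign.

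Of the other 6, Flna (filamin A), Csrp1 and Pdlim7 had log2 fold changes of 0.45, 0.43 and 0.35, each higher in all 3 tumors. Pdlim7, a PDZ and LIM-domain adaptor of actin filaments, was unusually even, at 67.2 to 68.6 CPM in the positive and 84.5 to 88.3 CPM in the negative libraries, and its blocked limma-voom fit gave an adjusted p of 0.140. Flna and Csrp1 had blocked adjusted p-values of 0.0682 and 0.0702 in limma-voom and passed in DESeq2 with the block. Actn1 (α-actinin) was at 0.57 and Vcl (vinculin) at 0.08. Zyx (zyxin) went the other way, with a log2 fold change of -0.54 (SE 0.28, adjusted p = 0.425, limma-voom), ratios of 0.15, -0.56 and -1.17, and -0.56 (adjusted p = 0.153) with the block. Without tumor 1 it passed as lower in the blocked fit, at -0.84 (adjusted p = 0.00728). It overlaps Epha1, whose counts came to 7.10% of those of Zyx and whose own fitted change was -1.67 (adjusted p = 0.205, limma-voom). Vcl overlaps Ap3m1, whose counts came to 11.1% of those of Vcl and whose own fitted change was -0.68 (adjusted p = 0.337, limma-voom).

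Markers of other cells that a sort could admit moved in part with these genes. Of 7 pericyte and mural markers, 6 were tested, and with the block in limma-voom Mcam, Cspg4 and Notch3 were higher in CD34 negative CAFs (blocked log2 fold changes 2.15, 1.81 and 1.55) while Abcc9 and Kcnj8 were lower (-1.71 and -2.31). The summed level of the 7 ranged from 86.8 to 188 CPM in the positive and from 211 to 236 CPM in the negative libraries. Rgs5, a defining pericyte gene, was at 1.18, 1.03 and 0.247 CPM in positive libraries 1, 2 and 3 and at 4.08, 3.72 and 10.7 CPM in the negative ones, and Higd1b was at 0 to 0.605 CPM in all libraries. Rgs5 and Myh11 were thus both highest in negative library 3. The part of mural cells in the values of Acta2, Tagln, Mylk, Myh11 and Des was not tested.

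Epithelial and myoepithelial markers (8 genes) summed to 14.0 to 129 CPM in the positive and 45.8 to 141 CPM in the negative libraries. In limma-voom 0 of them passed with or without the block, and DESeq2 with the block passed 1 (11.7% of all genes). The log2 fold change without the block was above 0 for 6 of them and below 0 for 2. Within each tumor the negative sum was higher, and the part of these cells in the contractile values was not tested. Skeletal muscle markers summed to at most 6.71 CPM, with Myf5 and Myod1 at 0 in all 6 libraries. Endothelial markers summed to 5.91 to 27.3 CPM over all libraries. Immune markers summed to 4.52 to 6.76 CPM in the positive and 8.72 to 10.4 CPM in the negative libraries.

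**Figure D4:**
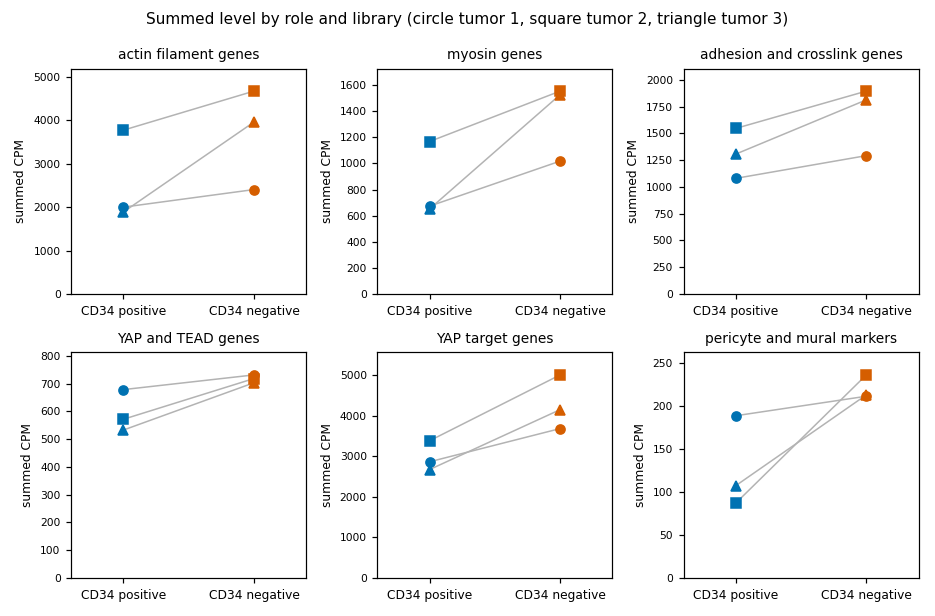
Summed CPM of the genes of each role except Srf, and of the 7 pericyte and mural markers, in each library, with lines joining the libraries of a tumor. Every line rises from CD34 positive to CD34 negative, and the groups overlap for the actin filament, myosin and adhesion genes but not for the YAP and TEAD genes, the YAP targets or the mural markers.

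Srf itself passed in neither limma-voom fit. It was at 44.4, 39.7 and 62.8 CPM in positive libraries 1, 2 and 3 and at 77.9, 52.7 and 76.3 CPM in the negative ones. Each tumor's negative library was higher, by 0.81, 0.41 and 0.28, and positive library 3 lay above negative library 2. The log2 fold change was 0.51 (SE 0.24, adjusted p = 0.385, limma-voom) without and 0.47 (SE 0.15, adjusted p = 0.0970) with the block, and without tumor 3 the blocked adjusted p was 0.0354.

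The partners of SRF were tested as a list of 6 genes, Mrtfa, Mrtfb, Myocd, Elk1, Elk3 and Elk4, and 0 passed in limma-voom with or without the block. Those with the highest mean CPM were Elk3 (log2 fold change 0.38 without the block) and Mrtfb (-0.12), and the median log2 fold change of the list was -0.02. Of 7 immediate early SRF targets, which respond to growth signals within minutes, 0 passed without and 2 passed with the block, Egr2 (blocked log2 fold change 0.52, adjusted p = 0.0348, limma-voom) and Ier2 (blocked log2 fold change 0.49, adjusted p = 0.0459), both higher in all 3 tumors. These genes also respond to tissue dissociation, and the part of dissociation was not tested.

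None of the 7 YAP, TEAD and Hippo genes passed over the 3 tumors in limma-voom, with or without the block, while Tead3 passed with the block without tumor 3 (adjusted p = 0.0283). Yap1 was at 112, 71.3 and 84.8 CPM in positive libraries 1, 2 and 3 and at 120.2, 86.9 and 78.4 CPM in the negative ones, a log2 fold change of 0.10 (SE 0.23, adjusted p = 0.871, limma-voom) without and 0.10 (SE 0.14, adjusted p = 0.742) with the block. The groups overlapped and tumor 3 had the opposite sign to tumors 1 and 2. Wwtr1, which encodes TAZ, was at 293, 213 and 208 CPM in positive libraries 1, 2 and 3 and at 329, 276 and 301 CPM in the negative ones. It was higher in each tumor, but positive library 1 exceeded negative library 2, and the log2 fold change was 0.34 (SE 0.20, adjusted p = 0.469, limma-voom) without and 0.36 (SE 0.13, adjusted p = 0.133) with the block. Per length, Wwtr1 held 68.2% to 77.0% of the sum of Yap1 and Wwtr1 in every library.

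Among the TEAD factors, Tead1, Tead2 and Tead3 made up nearly all of the family, with shares per length of 42.3% ± 5.7, 25.5% ± 7.8 and 32.1% ± 7.7 in positive and 39.1% ± 6.9, 27.3% ± 3.0 and 33.3% ± 4.0 in negative libraries (SD, n = 3 each). Their log2 fold changes were 0.20, 0.50 and 0.42. Tead4 stayed under 1 CPM everywhere, with 0 counts in both libraries of tumor 3, and had a log2 fold change of 0.97 (SE 2.12) without and 1.35 (SE 1.13, adjusted p = 0.541, limma-voom) with the block. Lats2, the Hippo kinase that is itself induced by YAP, was at 72.4 to 79.0 CPM in the positive and 81.4 to 106 CPM in the negative libraries, a log2 fold change of 0.32 (SE 0.17, adjusted p = 0.435, limma-voom) without overlap of the groups. With the block, 0 of the 7 passed, the lowest adjusted p being 0.133. Of 17 further Hippo pathway genes, 0 passed in limma-voom with or without the block. DESeq2 with the block passed 3, Wwc2 as higher and Sav1 and Frmd6 as lower, where 11.7% of all genes passed. The genes of this list with the highest mean CPM, Map4k4 and Frmd6, had log2 fold changes of 0.13 and -0.50 without the block.

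Ccn2 and Ccn1, secreted matricellular proteins and the YAP targets most often measured, had the highest levels per length of the 37 genes but did not move together. Ccn2 (chr10:24595442-24598683) was at 1554, 1710.1 and 781 CPM in positive libraries 1, 2 and 3 and at 2378, 3377 and 2485 CPM in the negative ones. All negative libraries exceeded all positive ones, and the ratios were 0.61, 0.98 and 1.67 in tumors 1, 2 and 3. Its log2 fold change was 1.10 (SE 0.33, adjusted p = 0.188, limma-voom) without and 1.09 (SE 0.19, adjusted p = 0.00870) with the block, and the adjusted p of DESeq2 without the block was 0.0354.

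Ccn1 (chr3:145646971-145649985) was at 1188, 1498 and 1771 CPM in positive libraries 1, 2 and 3 and at 1183, 1456 and 1492 CPM in the negative ones. The groups overlapped, and the libraries of tumors 1 and 2 were nearly equal. Its log2 fold change was -0.08 (SE 0.22, adjusted p = 0.897, limma-voom) without and -0.10 (SE 0.13, adjusted p = 0.709) with the block. Of the sum of the genes per length, Ccn1 took 47.5%, 50.9% and 72.9% in positive libraries 1, 2 and 3 and 37.1%, 33.8% and 41.6% in the negative ones. The shares did not overlap, and their means differed by 19.6 percentage points, with the lower share in the negative library of all 3 tumors. An exact two-sided permutation test over unpaired libraries gave p = 0.1, the smallest that 3 against 3 allows, so it could not pass.

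Ankrd1, an ankyrin-repeat protein of stressed muscle that YAP induces, was at 0.619, 6.67 and 1.66 CPM in positive libraries 1, 2 and 3 and at 1.74, 9.54 and 5.77 CPM in the negative ones, with a log2 fold change of 0.24 (SE 0.95, adjusted p = 0.933, limma-voom) without and 0.75 (SE 0.37, adjusted p = 0.275) with the block. It was higher in 3 of 3 tumors, by 1.43, 0.52 and 1.79 on the log2 scale. Amotl2, an angiomotin that binds YAP, had a log2 fold change of 0.18 and ratios of 0.00, -0.02 and 0.51. Of 17 other YAP targets, 0 passed without the block and 4 with it in limma-voom, Arhgef17 (blocked log2 fold change 1.09, adjusted p = 0.00610), Ptpn14 (1.04, adjusted p = 0.0276) and Nuak2 (1.05, adjusted p = 0.0234) higher and Nt5e (-1.56, adjusted p = 0.0265) lower. Arhgef17 is a guanine nucleotide exchange factor, Ptpn14 a phosphatase that restrains YAP and Nuak2 a kinase that promotes actomyosin tension.

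The shares of paralogs were compared in 8 families, by 17 shares per length. With 3 libraries against 3 an exact permutation test cannot give a p below 0.1, and it takes the libraries as unpaired, so no share could pass and the shares are given as values. Tpm4 took 69.6% ± 4.8 of Tpm1, Tpm2 and Tpm4 in positive and 58.0% ± 2.3 in negative libraries (SD, n = 3 each). This share was lower in the negative library of all 3 tumors, and the groups did not overlap. Tpm3, a further tropomyosin, was not in this sum. Its mean was 106 CPM per kb in positive and 102 in negative libraries, so with Tpm3 included the share of Tpm4 would be lower. Tagln took 44.3% ± 18.6 of Tagln and Tagln2 in positive and 69.6% ± 11.8 in negative libraries. Myh9 took 69.0% ± 13.4 and 81.9% ± 6.2 of the 3 listed heavy chains. Both shares overlapped between the groups and were higher in the negative library of all 3 tumors. Cnn3 was the major calponin throughout, at 74.6% ± 6.6 and 67.9% ± 8.1.

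**Figure D5:**
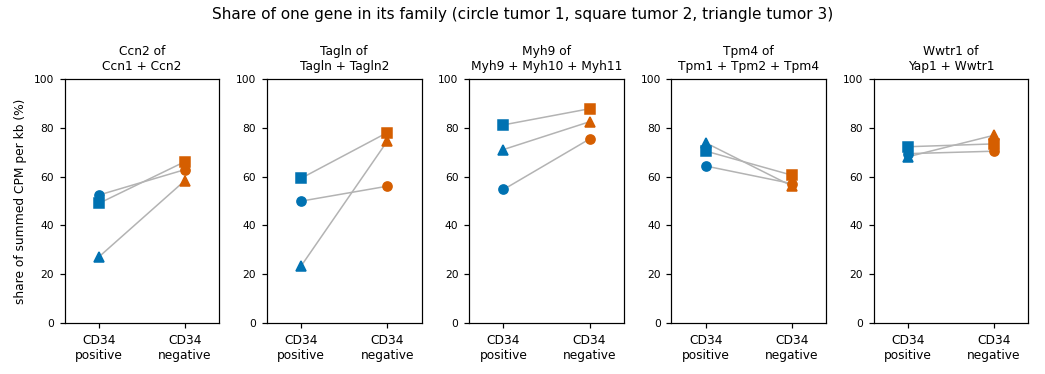
Share of Ccn2, Tagln, Myh9, Tpm4 and Wwtr1 in the summed CPM per kb of their families, in percent, for each library. Lines join the libraries of a tumor, and Tpm3 is not in the family of Tpm4. The share of Ccn2 rises and that of Tpm4 falls in every tumor without overlap of the groups, whereas the shares of Tagln, Myh9 and Wwtr1 rise in every tumor with overlap.

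Further genes of the actin cytoskeleton, outside the 37, were fitted in the same way. Of these, 16 of 26 had a log2 fold change above 0, where 47.7% of all genes did. Of these 26 other actin and focal adhesion genes, 0 passed without the block and 4 passed with it in limma-voom, all higher, namely Tns3 (blocked log2 fold change 1.72, adjusted p = 0.0134), Palld (0.81, adjusted p = 0.0173), Actn4 (0.58, adjusted p = 0.0250) and Tln1 (0.51, adjusted p = 0.0406), and the median log2 fold change of the list was 0.09 without the block. Tns3 encodes a tensin and Tln1 talin, which tie integrins to actin, whereas Palld and Actn4 crosslink filaments.

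Tns3 was at 169.8, 114 and 46.7 CPM in the positive and at 280.4, 311 and 374 CPM in the negative libraries, without overlap of the groups. Its ratio was 3.00 in tumor 3 and 0.72 in tumor 1.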

How the data were processed

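Bulk RNA-seq of 6 libraries, 3 CD34 negative and 3 CD34 positive, was analysed. Per the study's methods, the authors aligned reads to GRCm38 and counted them per gene with Rsubread, and the deposited values are raw counts, not normalized, with replicates kept apart. Strand use and the treatment of reads with several matches are not stated. Groups and tumor numbers were read from the sample titles. Counts were filtered with filterByExpr (minimum count 10), scaled by TMM (edgeR 4.0.16) and fitted with voom and limma 3.58.1 in R 4.3.3, the tools the study's methods name. Those methods state no tumor term, and the main fit was made without one. Adjusted p-values are Benjamini-Hochberg over all 14855 genes tested, two-sided, with a threshold of 0.05.

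The tumor pairs the libraries, since both fractions came from 1 tumor. Residuals about the group means correlated between the fractions of tumors 1, 2 and 3 at 0.373, 0.350 and 0.219 (across genes), so the fit with the tumor as a block is given beside the other. Alternatives were edgeR quasi-likelihood, DESeq2 1.42.0, limma-trend (prior count 2), sample quality weights, other scalings and filters, and each library or tumor left out. Scripts were tested on simulated data. Levels between genes are CPM per kb of gene length.

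The members, lists and tests were chosen with earlier results of these data known. Members are all described by role, with values per library for those that passed with or without the block and for Acta2, Tagln, Mylk, Srf, Yap1, Wwtr1, Ccn1 and Ccn2. Other members given per library or by range were chosen after their values were seen. Of the surrounding lists, up to 4 called genes with the largest change are named, or the 2 with the highest mean CPM where none was called, and Tns3 was given per library after its values were seen. The result of 1 further list is not reported here. Promoter sequences and positions are from RefSeq, GRCm38.p6. No library was left out of the main fit.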

Additional observations from a re-analysis of the deposited data

How the results depend on the processing

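The median log2 fold change of the 37 genes kept its sign under all 24 alternatives, from 0.32 without tumor 3 to 0.71 with the block without tumor 1. Among the 37 genes, 0 were called in the fit without a block. The count was 9 with the block in limma-voom, 2 with the block in edgeR, 2 in DESeq2 and 12 in DESeq2 with the block. With each library or tumor left out it ranged from 0 to 1 without the block, and it was 14 (13 higher, and Zyx lower), 11 and 11 with the block without tumor 1, 2 and 3. Tumor pairing moved the genes of the surrounding lists from 0 to 15 called. Over all genes, 18 were called, against 9 in edgeR, 698 in DESeq2, 161 with sample quality weights, 32 with library size alone, and, with the block, 1273 in limma-voom, 575 in edgeR and 1733 in DESeq2. Leaving out libraries or tumors gave 0 to 2019 calls, 0 to 86 without the block, and 1134, 851 and 2019 with the block without tumor 1, 2 and 3. Why the tools differ was not tested.

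Yap1 turned sign without positive library 2 (-0.063), negative library 1 (-0.081), tumor 2 (-0.015) and tumor 2 with the block (-0.020), in a range of -0.081 to 0.27 over libraries and tumors left out. Ccn1 did so without positive library 3 (0.055) and negative library 1 (0.0084), in a range of -0.26 to 0.055. Neither passed in any of these fits. Over the 9 fits without a block that left out a library or tumor, the sign also turned for Tpm4 in 5, Ankrd1 in 3, Lmod1 in 2 and Tagln2, Myh10 and Vcl in 1 each, and for Tead4 in 2 of 8. The paralog shares kept their sign when counts were not scaled by gene length. With 3 tumors and low counts of Actg2, Lmod1, Cnn1, Myh11, Des, Tead4 and Ankrd1, the values of these genes are the least certain of the 37.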
